A study of Mus musculus with 13 samples.

Results

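Collagen genes were read out of RNA-seq gene counts of mouse medulloblastoma cells, as the 44 gene symbols of the form Col followed by a type number, the letter a and a chain number. These were 44 of 53653 genes in the table, with no filter on their level, and all 44 matched a gene of that name in the GENCODE M21 annotation. Medulloblastoma is a tumour of the cerebellum, and the tumours here carried SmoM2, an always active form of Smoothened that switches on Sonic Hedgehog signalling. The 13 libraries came from GFP-positive cells sorted after papain dissociation. KO metastasis (4 libraries, replicates 3, 4, 6 and 7) were spinal metastases with SmoM2 and with Kmt2d knocked out through a Cf/Cf allele, from mice of 5 to 8 weeks. KO primary (4 libraries, replicates 3, 4, 6 and 7) were cerebellar tumours with the same alleles and ages. Control primary (5 libraries, replicates 3 to 7) were cerebellar tumours with SmoM2 alone, from mice of 6 to 16 weeks. KMT2D methylates lysine in histone H3, chiefly at enhancers. The labels do not name the promoter that drove SmoM2, GFP and the deletion. They also give no mouse for each library, and p-values measure only the spread between these libraries, which may be technical.

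Collagens are extracellular proteins whose chains wind around each other in a helix before they assemble into fibrils, sheets or beaded filaments. Type IV collagen forms the network of basement membranes, which in the brain lie around blood vessels and beneath the pial surface where granule cell precursors divide. Fibrillar collagens are typical of connective tissue and are scarce in brain outside the meninges and vessels.

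Totals per library were 27.1 to 40.8 M counts in KO metastasis, 35.2 to 41.4 M in KO primary and 23.5 to 37.5 M in control primary. Kmt2d itself, counted over the whole gene, had 105 to 131 CPM in KO metastasis, 91.7 to 168 CPM in KO primary and 78.1 to 175 CPM in control primary (counts per M, scaled by TMM). The sources used here do not say which exons the deletion removes, so these counts do not check the genotype. Granule cell precursor markers were present, with Atoh1 averaging 629 CPM in KO metastasis, 684 CPM in KO primary and 350 CPM in control primary. In 4 libraries the 1772 genes of olfactory and vomeronasal receptors, proteins of sensory neurons in the nose, together drew 332 to 1679 CPM, against 5.59 to 81.3 CPM in the other 9. These were KO metastasis 6 and 7, KO primary 7 and control primary 3, called high-background libraries here, and together they held 27.5% of all counts. Control primary 5, 6 and 7 had 324 to 510 CPM of Xist, which is expressed in female cells, and the other 10 libraries, all knockout ones among them, had at most 1.02 CPM. KO metastasis 3 had 2.06% of its counts on mitochondrial genes, against 0.633% to 0.876% in the other libraries.

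Most of the 44 collagen genes averaged below 10 CPM in these libraries. By mean level over the 13 libraries, 10 chains reached 10 CPM, 20 lay between 1 and 10 CPM and 14 lay below 1 CPM. None of the 44 was at 0 in every library, and 27 had a count in each. The summed level of all 44 was 707 ± 269 CPM in KO metastasis (SD, n = 4), 858.5 ± 185 CPM in KO primary (n = 4) and 622 ± 184 CPM in control primary (n = 5), and the ranges of the 3 groups overlapped. The 6 chains highest in CPM made up 76.3% to 90.3% of that sum in KO metastasis, 77.3% to 87.2% in KO primary and 60.3% to 85.3% in control primary. The make-up of the sum differed by class. The 6 type IV chains held 23.5% to 41.5% of it in KO metastasis, 31.7% to 48.0% in KO primary and 14.7% to 26.5% in control primary. The fibril-associated chains held 7.89% to 19.99% in KO metastasis, 13.3% to 18.3% in KO primary and 37.9% to 61.3% in control primary, so every control lay above every knockout library. In CPM this class averaged 93.6 in KO metastasis, 138 in KO primary and 297.5 in control primary. Most of that was 1 chain, Col9a3, with means of 75.4, 117 and 256 CPM. Each share also depends on the level of the other classes.

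Levels were compared between genes per kilobase of exon, on the CPM per kb scale. Col9a3, a chain of the fibril-associated type IX collagen, was highest over all libraries with a mean level of 40.9 CPM per kb, ahead of Col4a1 at 22.3, Col18a1 at 20.3 and Col4a2 at 7.16 CPM per kb. The order of the leading chains differed between the groups. In KO metastasis Col18a1 led with a mean of 32.99 CPM per kb (18.2 to 58.2 over libraries), with Col4a1 at 23.2 (10.8 to 46.1) and Col9a3 at 19.6 (11.3 to 25.3), and these ranges overlapped. In KO primary Col4a1 led with 35.1 CPM per kb (21.7 to 49.98), and it overlapped with Col9a3 at 30.3 (26.3 to 38.2) and with Col18a1 at 24.5 (14.1 to 31.4). In control primary Col9a3 led with 66.5 CPM per kb (44.7 to 102), and its lowest library lay above the highest library of Col4a1, at 15.1 CPM per kb, and of Col18a1, at 11.8 CPM per kb. The chains typical of connective tissue, Col1a1 and Col1a2, had mean levels of 0.208 and 0.206 CPM per kb.

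**Figure D1:**
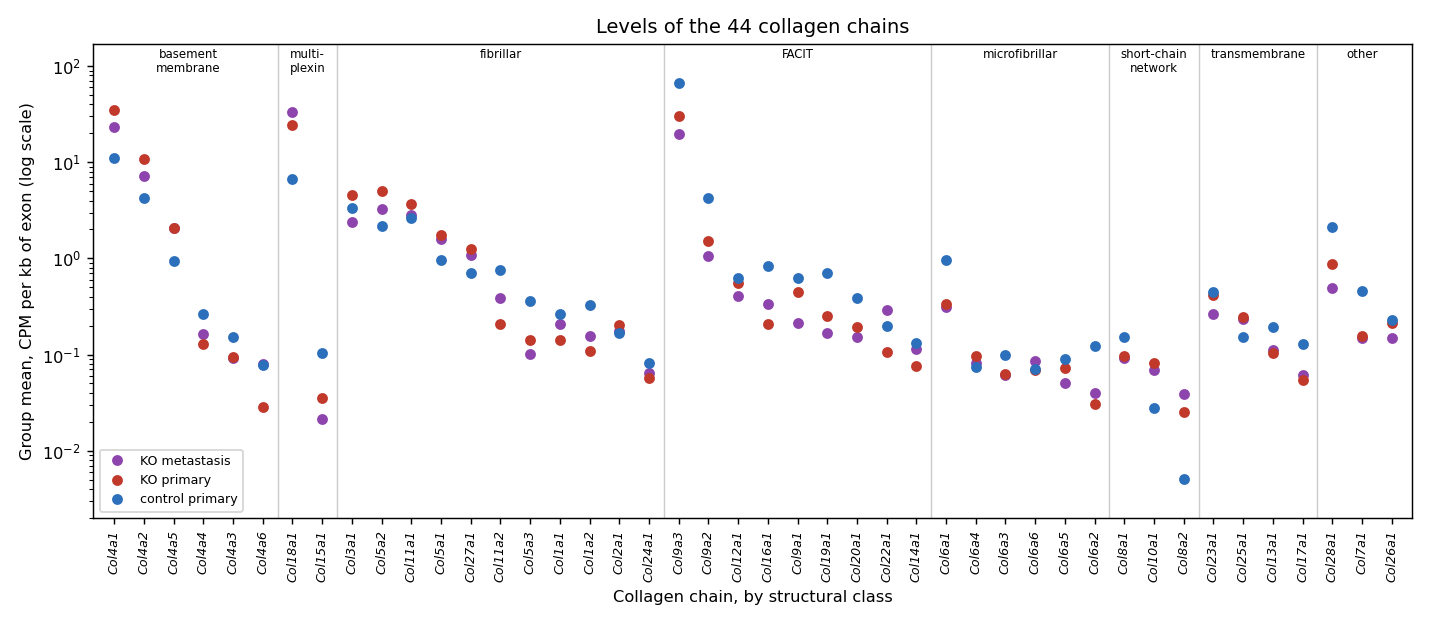
Mean level of each of the 44 collagen chains in CPM per kb of exon (log scale), by structural class, for KO metastasis, KO primary and control primary. Col9a3, Col4a1 and Col18a1 are the highest chains, and in control primary Col9a3 stands apart at 66.5 CPM per kb.

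The first comparison asked which collagen genes differed between tumours without and with Kmt2d. In KO primary tumours the type IV chains Col4a1, Col4a2 and Col4a5 and the basement membrane collagen gene Col18a1 were higher than in control primary tumours, by 2.22-fold to 3.66-fold. Col9a3 and Col28a1 were lower, by 2.20-fold and 2.45-fold. These 6 of 41 tested chains, or 14.6%, passed edgeR's quasi-likelihood test at an adjusted p below 0.05, against 2.93% of all 22265 genes tested. By direction 4 were higher, against 1.15% of all genes, and 2 were lower, against 1.78%. The libraries of the groups did not overlap for 7 of the 41 chains, or 17.1%, namely these 6 and Col9a2, against 7.42% of all genes. By direction 4 were higher, against 3.57% of all genes, and 3 lower, against 3.85%. The median log2 fold change of the 41 was -0.67, against -0.05 for all genes tested, and 12 of the 41 lay above 0. Several chains with few counts changed sign when 1 library was left out, such as Col4a3 (-2.98 to 2.69), Col8a1 (-3.37 to 2.09) and Col6a6 (-3.42 to 7.35). The median therefore does not show a fall of the whole family. In bulk counts, fewer cells of a type and less RNA per cell cannot be told apart.

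Among the 6 basement membrane chains, Col4a1, Col4a2 and Col4a5 rose and Col4a3, Col4a4 and Col4a6 did not pass the test. Col4a1 and Col4a2 encode the chains that combine, 2 of the first to 1 of the second, into the common type IV collagen of vessels and other basement membranes. Col4a1 lies on mouse chromosome 8 at 11198423-11312826, minus strand, and Col4a2 at 11312805-11449287, plus strand (GRCm38). The genes are head to head, their first exons overlap by 22 bases, and they are known to share a promoter region. The pieces below carry the letters CCAAT, read on either strand and given in capitals, which begin 145 bases before the RefSeq start of Col4a1 and 32 bases before that of Col4a2. They are shown because both genes rose in KO primary.
Col4a1, chr8:11312954-11312983, minus strand: tgcttgcccgggATTGGcgagccaaggggc
Col4a2, chr8:11312761-11312790, plus strand: ccgaggagctccCCAATttgttggcgctgc
The sequences are from RefSeq on GRCm38.p6. They are short because the upstream bases of each gene are annotated as transcribed bases of its neighbour.

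Col4a1 had 80.8, 344, 177 and 91.5 CPM in KO metastasis 3, 4, 6 and 7. It had 304, 373, 211 and 162 CPM in KO primary 3, 4, 6 and 7, against 57.6, 53.9, 93.4, 113 and 101 CPM in control primary 3 to 7. All 4 KO primary libraries lay above all controls, while the metastases were spread across both ranges, with replicate 4 at the level of the KO primaries and replicates 3 and 7 among the controls. The mean was 262 ± 94.4 CPM in KO primary (SD, n = 4), against 83.6 ± 26.4 CPM in control primary (n = 5). The log2 fold change was 1.65 (SE 0.40, edgeR adjusted p = 0.0421).

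Col4a2 had 25.2, 87.4, 50.2 and 26.5 CPM in the metastases, in the same order of replicates. Its levels were 80.2, 84.6, 68.3 and 54.0 CPM in KO primary, against 28.2, 16.1, 33.8, 36.0 and 25.5 CPM in control primary. Again every KO primary library was above every control, and again metastasis 4 was high and metastases 3 and 7 were low. The log2 fold change of KO primary over control primary was 1.36 (SE 0.34, edgeR adjusted p = 0.0465). Per kilobase, Col4a1 stood at 2.84 to 3.49 times the level of Col4a2 in KO metastasis, 2.66 to 3.91 times in KO primary and 1.81 to 3.49 times in control primary. These ranges overlapped, and the lowest ratio was in the high-background library control primary 3.

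**Figure D2:**
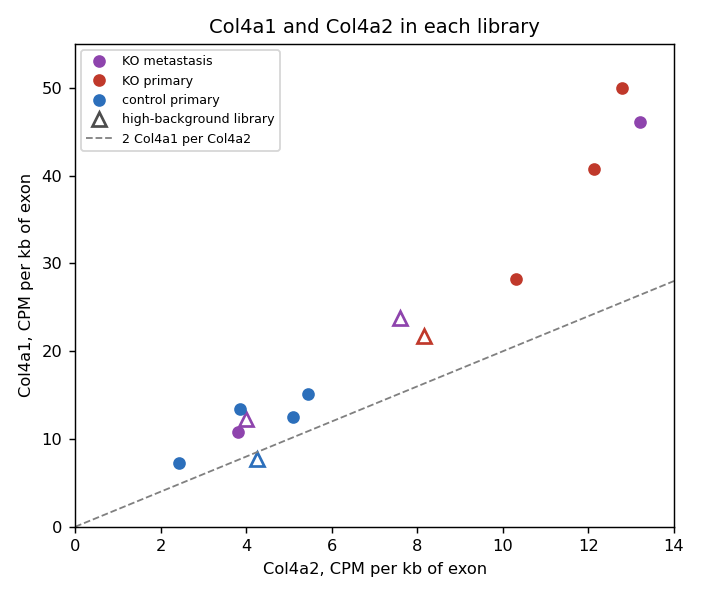
Level of Col4a1 (vertical axis) against Col4a2 (horizontal axis) in each library, both in CPM per kb of exon, with open triangles for the 4 high-background libraries and a dashed line at 2 of Col4a1 for each of Col4a2. 12 libraries lie above the line and control primary 3 lies just below it, and the 4 KO primary libraries lie at 8.16 CPM per kb of Col4a2 or higher.

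Col4a5, an X-linked chain of the same family that is mutated in the kidney disease Alport syndrome, lies on chromosome X at 141475385-141689234, plus strand. Its RefSeq start is 1342 bases from that of Col4a6 on the other strand. The bases before its start are shown because Col4a5 rose while its head-to-head neighbour had few counts, with the letters CCAAT in capitals.
Col4a5, chrX:141475169-141475384, plus strand: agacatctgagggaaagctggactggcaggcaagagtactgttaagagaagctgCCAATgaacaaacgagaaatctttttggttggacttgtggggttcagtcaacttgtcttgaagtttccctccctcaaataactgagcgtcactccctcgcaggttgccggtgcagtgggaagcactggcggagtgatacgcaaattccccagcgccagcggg
Col4a5 had 11.5, 21.5, 12.3 and 9.78 CPM in the metastases. It had 19.3, 14.7, 9.89 and 11.7 CPM in KO primary, against 6.24, 6.10, 9.20, 4.15 and 5.68 CPM in control primary. The 4 KO primary libraries lay above the controls, but KO primary 6 at 9.89 CPM was close to control primary 5 at 9.20 CPM. The log2 fold change was 1.15 (SE 0.29, edgeR adjusted p = 0.0474). Col4a6 averaged 0.228 CPM in KO primary and 0.622 CPM in control primary, of which 2.62 CPM stood in the high-background control primary 3 alone.

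Col18a1 encodes a collagen of basement membranes whose end fragment, endostatin, is known to inhibit vessel growth. It lies on chromosome 10 at 77052178-77166548, minus strand. The stretch before its most upstream start is shown because Col18a1 had the largest rise of the tested chains, and its capitals mark CCAAT and the GC box letters GGGCGG, each on either strand.
Col18a1, chr10:77166549-77166780, minus strand: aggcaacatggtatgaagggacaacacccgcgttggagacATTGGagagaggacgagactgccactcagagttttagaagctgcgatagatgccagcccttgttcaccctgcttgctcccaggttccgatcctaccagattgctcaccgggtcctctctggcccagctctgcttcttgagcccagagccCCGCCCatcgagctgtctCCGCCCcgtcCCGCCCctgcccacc
Col18a1 has a second, internal start, and counts per gene do not tell the starts apart. Col18a1 had 193, 409, 128 and 197 CPM in the metastases. It had 175, 221, 99.0 and 193 CPM in KO primary, against 22.9, 28.8, 79.1, 21.5 and 82.9 CPM in control primary. All knockout libraries were above all controls, among which control primary 5 and 7 were highest. The log2 fold change in KO primary was 1.87 (SE 0.45, edgeR adjusted p = 0.0424). Col15a1, the other member of its class, had too few counts to be tested.

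**Figure D3:**
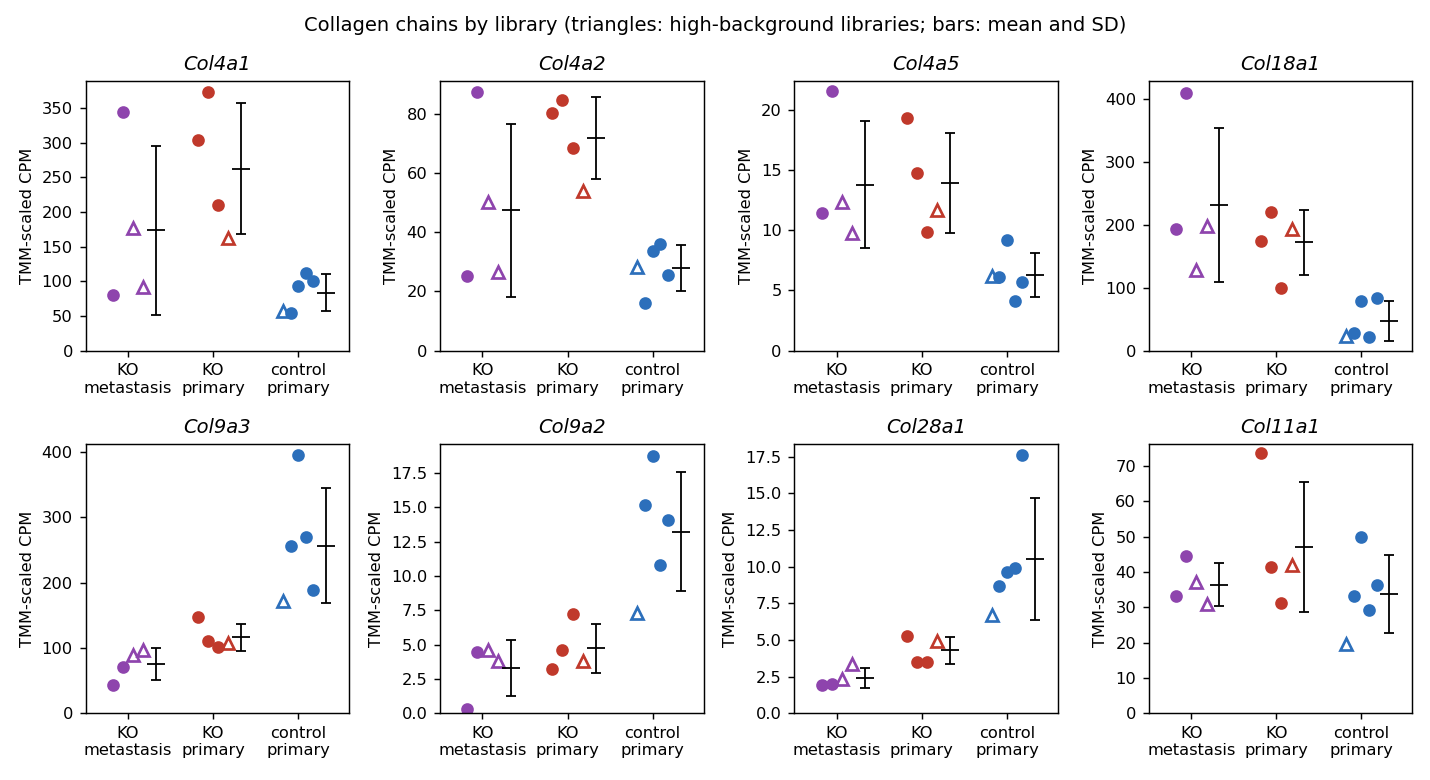
TMM-scaled CPM of 8 collagen chains in each library of KO metastasis, KO primary and control primary, with the mean and SD beside each group and open triangles for high-background libraries. Col4a1, Col4a2, Col4a5 and Col18a1 are higher in every KO primary library than in any control, Col9a3, Col9a2 and Col28a1 are lower in every knockout library than in any control, and Col11a1 overlaps between the groups.

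Of the 9 fibril-associated chains, all had a log2 fold change below 0 in KO primary and 1, Col9a3, passed the test. With 1 library left out at a time, Col14a1 ranged from -1.82 to 0.71, Col9a1 from -0.69 to 0.19 and Col12a1 from -0.42 to 0.07. The other chains of the class stayed below 0 in these fits. Col14a1 had 66.6% of its counts in the high-background libraries. Col9a3 and Col9a2 encode chains of type IX collagen, which coats cartilage fibrils. Col9a3 (chromosome 2 at 180597790-180622189, plus strand) had 43.5, 70.7, 90.01 and 97.4 CPM in the metastases. It had 147, 111, 101 and 107 CPM in KO primary, against 172, 256, 395, 270 and 189 CPM in control primary. Every knockout library lay below every control, and the log2 fold change in KO primary was -1.14 (SE 0.26, edgeR adjusted p = 0.0356). Col9a3 shares 234 of its 3853 exon bases with Tcfl5 on the other strand, and without a stated strand setting for the counting, reads in those bases cannot be assigned.

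Col9a2, its partner chain, had 0.287, 4.46, 4.64 and 3.83 CPM in the metastases. It had 3.23, 4.63, 7.25 and 3.85 CPM in KO primary, against 7.34, 15.1, 18.7, 10.8 and 14.05 CPM in control primary. The groups did not overlap, though KO primary 6 and control primary 3 were close, and the difference did not pass the test (log2 fold change -1.48, SE 0.53, edgeR adjusted p = 0.206). The third type IX gene, Col9a1, averaged 2.26 ± 0.679 CPM in KO primary and 3.15 ± 2.99 CPM in control primary, with overlapping libraries. Col12a1, a chain of the same class found in tendon and other dense tissue, averaged 8.55 ± 1.96 CPM in KO primary and 9.57 ± 5.90 CPM in control primary.

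Col28a1 encodes a collagen with von Willebrand factor A domains that is known from peripheral nerves. It lies on chromosome 6 at 7997808-8192617, minus strand, and the bases before its start are shown because Col28a1 fell in KO primary. They hold none of the 3 motifs searched, so no letter is in capitals.
Col28a1, chr6:8192618-8192867, minus strand: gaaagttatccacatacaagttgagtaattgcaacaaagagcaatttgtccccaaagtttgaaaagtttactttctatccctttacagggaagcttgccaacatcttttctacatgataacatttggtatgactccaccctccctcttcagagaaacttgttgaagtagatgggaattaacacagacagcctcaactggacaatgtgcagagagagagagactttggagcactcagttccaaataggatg
Col28a1 had 1.94, 2.02, 2.35 and 3.37 CPM in the metastases. Its levels were 5.26, 3.51, 3.49 and 4.93 CPM in KO primary, against 6.69, 8.71, 9.65, 9.95 and 17.6 CPM in control primary. The metastases were lowest, the KO primaries lay between and the controls were highest, with no overlap between any of the groups. The log2 fold change in KO primary was -1.29 (SE 0.29, edgeR adjusted p = 0.0332).

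The motifs were the letters CCAAT of the CCAAT box, the letters GGGCGG of the GC box and the letters TATAAA of the TATA box, searched on both strands in the 250 bases before each RefSeq start, and the CCAAT and GGGCGG matches shared no base in the windows of these genes. In these full windows Col4a1 held 1 CCAAT and 0 GGGCGG, Col4a2 held 1 and 2, Col4a5 held 1 and 1, Col18a1 held 1 and 3 at its most upstream start and Col28a1 held 0 and 0. TATAAA was in none of these 5 windows. The window of the second, internal start of Col18a1 held none of the motifs, as that of Col28a1 did. Of all 32851 such windows, 33.8% held CCAAT, 32.7% held GGGCGG and 12.4% held TATAAA. Over the 38 windows of the 35 collagen genes that had one, 13 held CCAAT, 22 held GGGCGG and 5 held TATAAA. The GC content of the windows was 74.4% for Col4a1, 73.6% for Col4a2, 54.0% for Col4a5, 62.0% for Col18a1 and 40.4% for Col28a1, against a median of 52.4% over all windows. A match is a match of letters and shows no binding.

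None of the 11 fibrillar chains passed the test between KO primary and control primary, and 6 of them had a log2 fold change above 0. Col5a2, a chain of type V collagen that starts fibrils, had 54.2, 41.7, 52.6 and 43.1 CPM in KO primary, against 7.49, 2.84, 49.8, 20.9 and 23.3 CPM in control primary. The groups overlapped through control primary 5 alone, and the log2 fold change was 1.20 (SE 0.55, edgeR adjusted p = 0.358). Its partner Col5a1 averaged 15.0 ± 5.08 CPM in KO primary and 8.25 ± 6.62 CPM in control primary. Col27a1, a cartilage chain, averaged 16.4 ± 5.75 CPM in KO primary and 9.10 ± 9.72 CPM in control primary. Col11a1, a minor chain of cartilage fibrils, averaged 46.9 ± 18.4 CPM in KO primary and 33.7 ± 11.03 CPM in control primary. For these 3 chains too the libraries overlapped.

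Col3a1, the chain of the reticular fibres of vessels and meninges, averaged 44.8 ± 41.3 CPM in KO primary and 33.1 ± 30.2 CPM in control primary. The highest libraries were KO primary 3 at 106 CPM and control primary 5 at 86.4 CPM. Col11a2 averaged 1.43 ± 1.41 CPM in KO primary and 5.26 ± 3.58 CPM in control primary (log2 fold change -1.87, SE 0.66, edgeR adjusted p = 0.206).

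In the other classes, none of 6 microfibrillar, 4 transmembrane and 1 tested short-chain network chain passed. Col6a1, the highest of the type VI chains that build beaded filaments, averaged 1.49 ± 1.57 CPM in KO primary and 4.22 ± 2.4 CPM in control primary. Col25a1, a membrane-spanning collagen of neurons found in amyloid plaques, averaged 3.17 ± 2.37 CPM in KO primary and 1.98 ± 2.96 CPM in control primary. Col8a1, a chain of sheets beneath vessel lining and in the cornea, averaged 0.765 ± 1.32 CPM in KO primary and 1.20 ± 2.33 CPM in control primary. In each of these the libraries of the groups overlapped.

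The calls between KO primary and control primary lay close to the threshold. Refitted without 1 library at a time, Col4a1 and Col4a2 kept their call in 1 of 9 fits, the one without KO primary 7. The adjusted p in the other 8 was 0.0595 to 0.159 for Col4a1 and 0.0585 to 0.151 for Col4a2. Col18a1 kept it without control primary 5 or 7 (0.0520 to 0.140 in the other 7), Col4a5 without control primary 5 or KO primary 7 (0.0575 to 0.217) and Col28a1 without control primary 3 or KO primary 7 (0.0502 to 0.131). Col9a3 kept it without control primary 3 or 7 or KO primary 3 (0.0715 to 0.126 in the other 6), and Col11a2 gained one without KO primary 7 (0.0367). No direction changed in the 6 called chains.

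Other settings ended calls too. Col4a5 lost its call in 6 of 9 alternatives, with an adjusted p of 0.0568 without the filter, 0.0517 with RLE scaling, 0.0603 with library totals and 0.0526 in a fit of only the 2 groups, besides the 2 exclusions given next. Col18a1 lost it in the fit of only the 2 groups (0.0549), Col28a1 without the filter (0.0633) and Col4a2 with library totals (0.0526).

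Without the 4 high-background libraries Col4a1, Col4a2, Col28a1 and Col9a3 kept their call, Col11a2 gained one and Col18a1 (adjusted p = 0.0547) and Col4a5 (0.0521) lost theirs. Without the 3 controls with Xist, 2 controls remained, control primary 4 and the high-background control primary 3. These had the lowest Col5a2 of all controls, at 2.84 and 7.49 CPM. In this fit Col18a1 kept its call, Col5a2 gained one (adjusted p = 0.0106) and the other 5 lost theirs. Their adjusted p by edgeR was 0.138 for Col4a1, 0.189 for Col4a2, 0.242 for Col4a5, 0.293 for Col9a3 and 0.449 for Col28a1. The part of sex and of mouse age in these differences was not tested.

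Markers of cells that make type IV collagen were read beside these chains. The summed level of 12 endothelial markers was 3.15 to 26.1 CPM in KO primary and 2.4 to 47.1 CPM in control primary. The medians were only 3.73 and 3.69 CPM, and 0 of 11 tested genes passed the test. The sum of 12 mural cell markers was 23.6 to 39.0 CPM in KO primary and 18.4 to 43.6 CPM in control primary. It includes Cspg4, whose level in control primary is given below and which is in the oligodendrocyte precursor list too. The overlap of these sums therefore does not show a like content of mural cells. Of 9 tested, 6 had a log2 fold change above 0, with a median of 0.65. The test was passed by 2 of them, both genes of a potassium channel and higher in KO primary, against 1.15% of all genes higher. Kcnj8 averaged 7.13 CPM in KO primary and 1.28 CPM in control primary (edgeR adjusted p = 0.0199), and Abcc9 averaged 11.8 CPM in KO primary and 2.81 CPM in control primary (adjusted p = 0.0196). The defining mural markers Pdgfrb, Rgs5 and Acta2 averaged 0.352, 0.460 and 0.702 CPM in KO primary and 0.873, 0.390 and 0.208 CPM in control primary, and none of these 3 passed the test. The sum of 12 fibroblast and meningeal markers was 196 to 251 CPM in KO primary and 240 to 524 CPM in control primary. Of 9 tested, 1, Serping1, was lower in KO primary, against 1.78% of all genes. Dcn and Lum reached at most 1.75 and 0.456 CPM in any library. Granule cell precursor markers summed to 3900 to 5034 CPM in KO primary and 2637 to 3740 CPM in control primary. Of 12 tested, 1, Atoh1, passed as higher in KO primary, against 1.15% of all genes. Granule neuron markers, by contrast, summed to 863 to 1027 CPM in KO primary and 1916 to 3249 CPM in control primary. Of these 6 of 9 were lower in KO primary, against 1.78% of all genes. Oligodendrocyte precursor markers summed to 786 to 1288 CPM in KO primary and 1329 to 1649 CPM in control primary, and oligodendrocyte markers to 69.2 to 101 CPM in KO primary and 145 to 408 CPM in control primary. Neither pair of ranges overlapped. These sums, like those of granule neurons, lay on the same side as Col9a3, Col9a2 and Col28a1 in this comparison. In the metastases these 3 chains and the precursor and granule neuron sums again lay below every control. The oligodendrocyte sum did not, at 172 to 1934 CPM in KO metastasis (median 571 CPM), against a median of 211 CPM in control primary. In the oligodendrocyte precursor list and in the oligodendrocyte list, 1 of 10 genes passed the test, lower in KO primary, against 1.78% of all genes. In these lists 7 of the 10 precursor and 10 of the 10 oligodendrocyte markers had a log2 fold change below 0 in KO primary. Opalin, an oligodendrocyte marker, was at 0 in every KO primary library. All 13 tested microglia and macrophage markers had a log2 fold change below 0 and 0 passed the test, with sums of 4.17 to 18.7 CPM in KO primary and 10.4 to 84.2 CPM in control primary. Schwann cell markers summed to 32.1 to 89.3 CPM in KO primary and 35.1 to 65.5 CPM in control primary. Of these 0 of 8 tested passed, with a median log2 fold change of -0.98. Astrocyte and Bergmann glia markers summed to 790 to 1318 and 710 to 940 CPM in these groups, and ependymal and choroid plexus markers to 151 to 168 and 114 to 174 CPM. Of 12 astrocyte markers 1 passed as higher and 1 as lower, and of 8 tested ependymal markers 1 as lower. Of all genes 1.15% were higher and 1.78% lower. No marker in these 3 lists of collagen-making cells was at 0 in all libraries of a group. The part of these cell types in the collagen differences was not tested.

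The comparison of spinal metastases with KO primary tumours found no collagen gene that passed the test. By edgeR 0 of 41 chains were called, against 0.00449% of all genes (1 gene, Mbp, of myelin). An unadjusted p below 0.05 was reached by 2 of the 41, against 720 of all 22265 genes. DESeq2 and limma voom called 0 of the 41 as well. The libraries did not overlap for 2 chains, or 4.88%, against 1.72% of all genes. Both were lower in the metastases, against 1.04% of all genes, and none was higher, against 0.683%. They were Col28a1, with a log2 fold change of -0.83 (SE 0.31), and Col9a3, with -0.63 (SE 0.27), each at an adjusted p of 1 by edgeR. The median log2 fold change of the 41 chains was -0.12, against -0.0038 for all genes. Col4a1 and Col4a2 averaged 173 ± 122 and 47.3 ± 29.1 CPM in KO metastasis, against 262 ± 94.4 and 71.8 ± 13.7 CPM in KO primary, with log2 fold changes of -0.60 (SE 0.42) and -0.60 (SE 0.36). Col18a1 averaged 232 ± 122 CPM in the metastases and 172 ± 52.2 CPM in KO primary. The metastasis pellets held 0.1 to 3 M cells, against 1 to 5 M in the primary tumours. Oligodendrocyte markers summed to 172 to 1934 CPM in KO metastasis, against 69.2 to 101 CPM in KO primary. Microglia and macrophage markers summed to 14.1 to 216 CPM in KO metastasis, against 4.17 to 18.7 CPM in KO primary. The log2 fold change was above 0 for all 10 oligodendrocyte, 13 microglia and macrophage and 8 Schwann cell markers tested, of which Mbp alone passed. It was above 0 for 4 of 11 endothelial and 3 of 9 mural markers. The part of these cells in the collagen levels was not tested.

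Between the metastases and control primary tumours, Col18a1 and Col4a5 were higher in the metastases, and Col9a3 and Col28a1 were lower. These 4 of 41 chains, or 9.76%, were called, against 3.08% of all genes. Of them 2 were higher, against 1.06% of all genes, and 2 lower, against 2.02%. The libraries did not overlap for 5 chains, or 12.2%, namely these 4 and Col9a2, against 6.82% of all genes, with 2 higher against 2.81% and 3 lower against 4.01%. This comparison uses the same 5 control libraries as that of KO primary with control primary, so the values stand side by side and are not independent. The marker sums in the metastases were 2.05 to 16.5 CPM for endothelial, 16.3 to 20.9 CPM for mural and 150 to 179 CPM for fibroblast and meningeal cells. The last of these did not overlap with the controls, and 2 of 9 tested markers, Pdgfra and Serping1, were lower in the metastases, against 2.02% of all genes. Of 9 tested mural markers 1, Cspg4, was lower, against 2.02% of all genes. It had 3.95 ± 0.894 CPM in KO metastasis and 16.6 ± 3.99 CPM in control primary. Oligodendrocyte precursor markers summed to 719 to 865 CPM in KO metastasis and 1329 to 1649 CPM in control primary, and 4 of 10 were lower in the metastases, Pdgfra and Cspg4 again among them. Of 10 oligodendrocyte markers 2, Mbp and Mobp, were higher in the metastases, against 1.06% of all genes. The part of these cell types was not tested.

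Col18a1 was 4.92-fold higher in KO metastasis than in control primary, with 232 ± 122 CPM against 47.0 ± 31.2 CPM (log2 fold change 2.30, SE 0.45, edgeR adjusted p = 0.0145). Col4a5 was 2.20-fold higher, with 13.8 ± 5.27 CPM against 6.27 ± 1.83 CPM (1.14, SE 0.29, adjusted p = 0.0491). Col28a1 was 4.34-fold lower, with 2.42 ± 0.657 CPM against 10.5 ± 4.16 CPM (-2.12, SE 0.29, adjusted p = 0.00241). Col9a3 was 3.40-fold lower, with 75.4 ± 24.0 CPM against 256 ± 87.8 CPM (-1.77, SE 0.26, adjusted p = 0.00316). For these 4 chains and for Col9a2, all 8 knockout libraries stood on the same side of every control.

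Col4a1 and Col4a2, both called in KO primary, were not called in the metastases. Their log2 fold changes there were 1.05 (SE 0.40, edgeR adjusted p = 0.221) and 0.76 (SE 0.34, adjusted p = 0.320), and metastases 3 and 7 overlapped with the controls for both. The direct difference between the metastases and KO primary, given above, did not pass for either. Col9a2 had a log2 fold change of -2.00 (SE 0.53, adjusted p = 0.0778). Its lowest value was 8 counts in KO metastasis 3, the library with the high mitochondrial share, in which Col9a3 was also lowest.

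The calls of Col28a1 and Col9a3 in the metastases held in all 9 fits without 1 library, with adjusted p up to 0.0125 and 0.0156. That of Col18a1 was lost without KO metastasis 4 (0.0535). Col4a5 kept its call without control primary 5 or KO metastasis 7 and lost it in the other 7 fits (0.0581 to 0.168), and Col9a2 gained one without control primary 3 (0.0402) or KO metastasis 3 (0.0309). Without the 4 high-background libraries the 4 chains were called, and Col19a1 and Col5a3 were added as lower. Without the 3 controls with Xist, Col18a1 was called and Col5a2 was added as higher, while Col28a1 (0.0722), Col9a3 (0.0587) and Col4a5 (0.256) were not called.

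**Figure D4:**
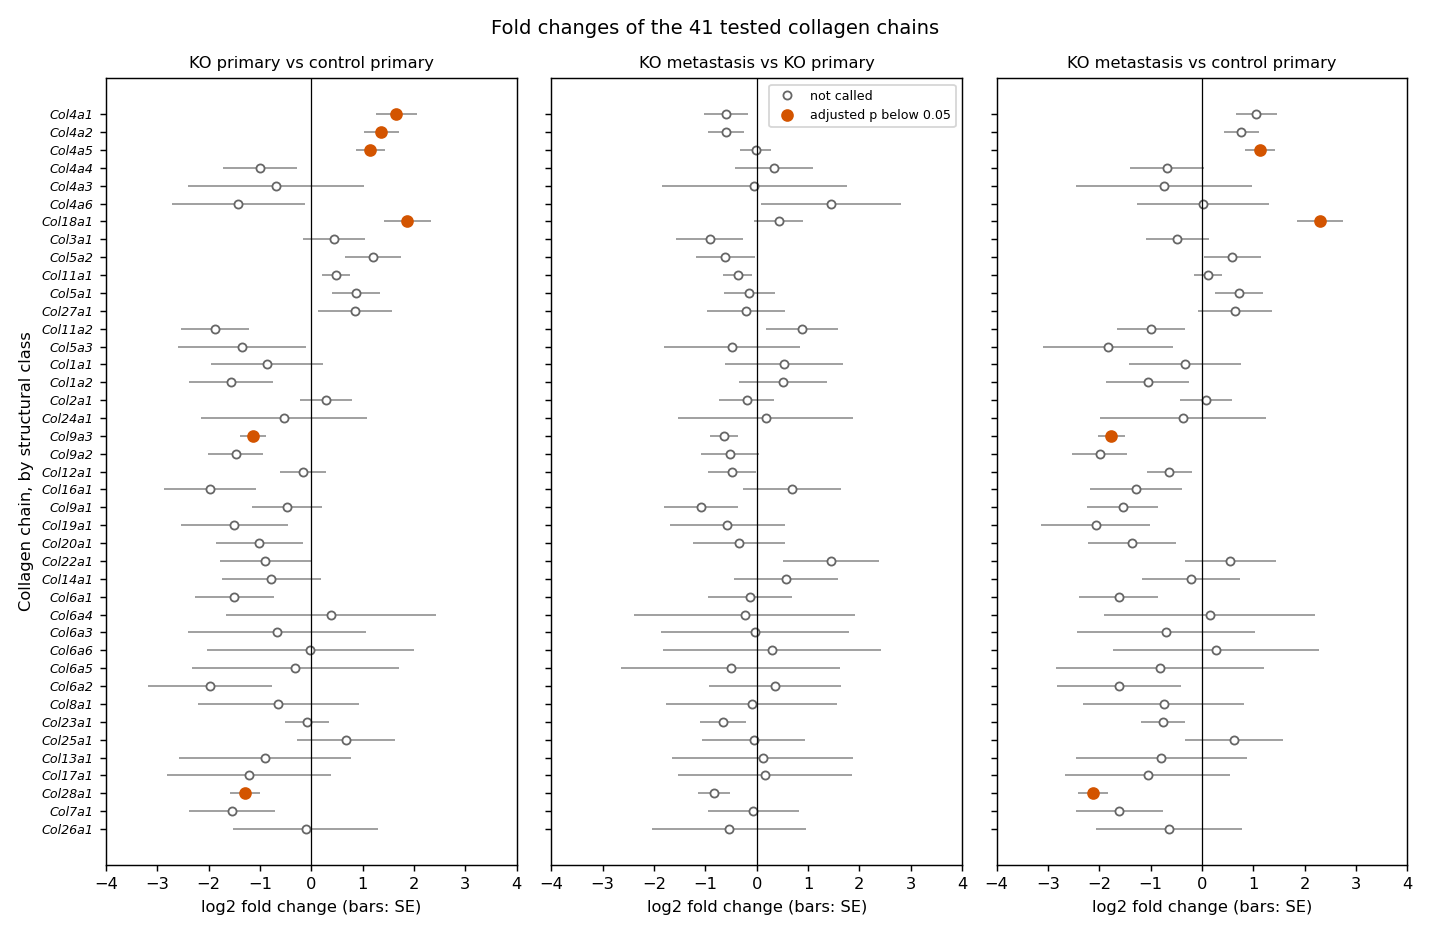
Log2 fold change (horizontal axis) with its SE for the 41 tested collagen chains in the 3 comparisons, with filled points for an edgeR adjusted p below 0.05. KO primary against control primary has 6 filled points, KO metastasis against KO primary none and KO metastasis against control primary 4.

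Genes that build, bind or cut collagen were read from a list of 52, of which 50 were tested. Between KO primary and control primary 4 were called, 1 higher and 3 lower, against 2.93% of all genes, with a median log2 fold change of -0.12 over the 50 and -0.05 over all genes. Among 33 modifying and processing enzymes 1 rose and 1 fell, among 10 receptors 1 fell and among 7 proteases 1 fell.

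Loxl1, a lysyl oxidase that cross-links elastin and collagen, had 111, 199, 129 and 100 CPM in the metastases. It had 212, 233, 148 and 103 CPM in KO primary, against 17.7, 15.5, 83.9, 29.0 and 55.3 CPM in control primary. All knockout libraries were above all controls, and in KO primary the log2 fold change was 2.11 (SE 0.44, edgeR adjusted p = 0.0210). Mmp2, the gelatinase that cuts type IV and denatured collagen, had 12.5, 4.35, 3.86 and 6.07 CPM in KO primary, against 18.4, 22.4, 23.6, 29.6 and 20.1 CPM in control primary. It was lower in every KO primary library than in any control (log2 fold change -1.77, SE 0.36, adjusted p = 0.0210).

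Ppib, a prolyl isomerase that helps fold procollagen, fell to 78.5 ± 9.82 CPM in KO primary, against 122 ± 8.55 CPM in control primary (log2 fold change -0.63, SE 0.13, edgeR adjusted p = 0.0214), with no overlap. Ddr1, a receptor tyrosine kinase that binds collagen, fell to 187 ± 36.3 CPM in KO primary, against 337 ± 79.1 CPM in control primary (-0.85, SE 0.19, adjusted p = 0.0268), with overlap through KO primary 7 and control primary 3. Serpinh1, the chaperone of nascent collagen, averaged 136 ± 57.5 CPM in KO primary and 146 ± 75.4 CPM in control primary. Of the 4 called genes, Loxl1, Mmp2 and Ppib lost their call in 4 of 9 fits without 1 library (adjusted p of those 0.0532 to 0.0801, 0.0532 to 0.0906 and 0.0670 to 0.0902), each of them without control primary 4 and without KO primary 4 among others. The remaining losses were without control primary 6 and KO primary 3 for Loxl1, control primary 6 and KO primary 6 for Mmp2 and KO primary 3 and 6 for Ppib. Ddr1 kept its call only without control primary 3 or KO primary 7 (0.0523 to 0.108 in the other 7).

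In the metastases none of the 50 genes was called by edgeR against KO primary, with 0.00449% of all genes called. At an unadjusted p below 0.05 was 1 of the 50, against 720 of all 22265 genes. Against control primary none was called either, with 3.08% of all genes called. At an unadjusted p below 0.05 were 10 of the 50, against 3170 of all 22265 genes. Against control primary DESeq2 called 6. Loxl1 stood at 135 ± 44.5 CPM in the metastases and 40.3 ± 29.1 CPM in control primary (log2 fold change 1.74, SE 0.44, edgeR adjusted p = 0.0520).

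Low collagen genes had most of their counts in few libraries. These 4 libraries held 27.5% of all counts but more than 40% of the counts of 26 collagen chains and more than 80% of the counts of 7, with a median of 44.9% over the 44. Of the 34 chains below a mean of 10 CPM, 19 had more than 50% of their counts there. Col6a5 had 96.4% of its counts in them, Col4a3 88.9%, Col15a1 88.4% and Col6a6 87.9%. The 6 called chains had 20.5% to 28.3%, close to the share of all counts. The log2 fold change of Col6a5 between KO primary and control primary was -0.31 with a SE of 2.01, and that of Col4a3 was -0.69 with a SE of 1.71. Col10a1, Col15a1 and Col8a2, with 75, 138 and 44 counts in all, did not pass the filter on low counts.

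**Figure D5:**
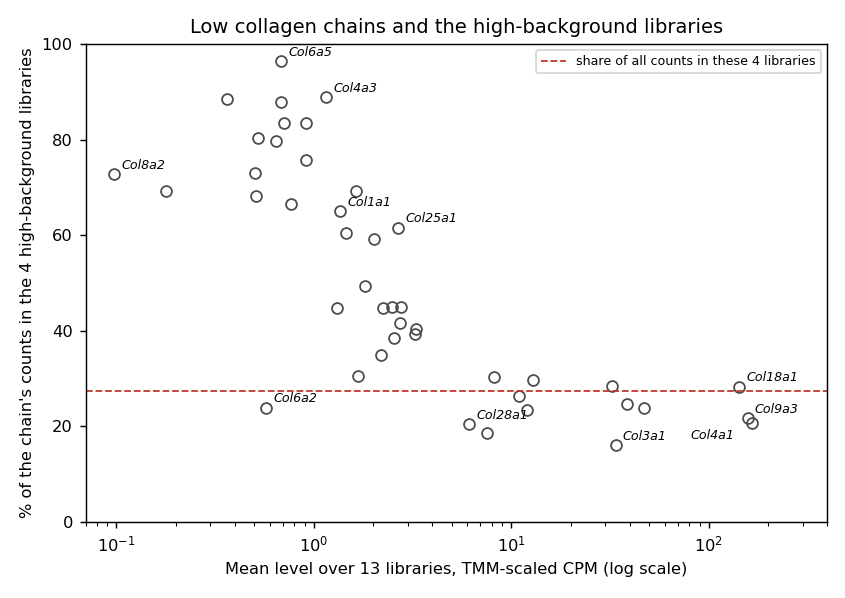
Share of each collagen chain's counts that came from the 4 high-background libraries (vertical axis, %) against its mean level in TMM-scaled CPM (horizontal axis, log scale), with a dashed line at the 27.5% that these libraries held of all counts. The 10 chains above 10 CPM lie between 16.1% and 29.6%, and the 14 below 1 CPM, Col6a2 apart, lie well above the line.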

How the data were processed

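The deposited table holds raw counts per gene for 13 libraries, which the authors made before deposit. The submitters' processing notes name mm10 as the build and STAR 2.4, HTSeq 0.6.1 and DESeq2 as tools, with no role for any. Annotation and strand setting are not stated there. Per the labels' protocols, GFP-positive cells were sorted from papain-dissociated tumours and a TruSeq RNA kit was used. Every column belonged to 1 of the 13 samples. The files state no molecular identifiers.

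An edgeR 4.0.16 model (R 4.3.3) was fitted to the 13 libraries, with 1 coefficient for each of the 3 groups. The filter filterByExpr, at a minimum count of 10 and a minimum total of 15, left 22265 genes, 41 of the 44 collagen chains among them. Counts were scaled by TMM and tested by quasi-likelihood F tests, with Benjamini-Hochberg adjustment over all 22265 genes and a call at an adjusted p below 0.05. Levels were expressed as CPM after TMM scaling. SDs are over libraries, and SEs are those of the fitted coefficients. Exon lengths and coordinates came from GENCODE M21 on GRCm38 and are 1-based.

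Alternatives were no filter, RLE scaling, library totals, DESeq2 1.42.0, limma 3.58.1 voom with quality weights, only the 2 groups compared, each library left out, the replicate number as a block, and leaving out the 4 libraries above 100 CPM of receptor genes or the 3 controls above 100 CPM of Xist. Where libraries were left out, the same genes were tested. The scripts were tested on simulated data. The collagen genes, their classes and the lists of related and marker genes were chosen with earlier results of these data known. The genes named are every chain called in any comparison, the 12 chains highest in mean CPM, the highest chain of each class and every called related gene. Others named (Col1a1, Col1a2, Col4a3, Col4a4, Col4a6, Col6a5, Col6a6, Col9a1, Col11a2, Col10a1, Col14a1, Col15a1, Col8a2, Col19a1, Col5a3, Col6a2 and Serpinh1) were chosen after their values were seen.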

Additional observations from a re-analysis of the deposited data

Results flagged for a closer look

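In 48 groups of 4 or 5 libraries of the chains named by rule, 5 held a library whose gap to the nearest other exceeded Dixon's 95% limit, and chance flags about 1 group in 20. Col3a1 was at 106 CPM in KO primary 3, with the next library of that group at 29.6 CPM, and at 86.4 CPM in control primary 5, with the next at 27.3 CPM. Col8a1 was at 2.74 CPM in KO primary 7 (next 0.272 CPM) and at 5.36 CPM in control primary 3 (next 0.296 CPM). Col25a1 was at 7.15 CPM in control primary 3, with the next control at 1.79 CPM. KO primary 7 and control primary 3 are high-background libraries, and KO primary 3 and control primary 5 are not. None of these 3 chains was called in any comparison.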

How the results depend on the processing

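None of the chains called in KO primary or KO metastasis against control primary changed direction under these alternatives. Of chains called under an alternative alone, Col4a3 did: voom called it higher in KO metastasis than in control primary (log2 fold change 4.53, adjusted p 0.0442), where edgeR gave -0.74. Col25a1, Col4a6 and Col6a6, which voom also called higher there, had values on both sides of 0 over the alternatives (-0.27 to 3.04, -1.10 to 3.50 and -1.02 to 7.05). Of the results for single named genes, 934 stayed on the same side of the threshold, 98 lost a call and 28 gained one, fits without 1 library included. Most of these genes and comparisons had no call to lose, so the 934 do not measure how stable the calls were. Between KO primary and control primary 6 chains, 4 related genes and 653 genes in all were called. Of the chains 4 were called without the filter, 5 with RLE scaling, 4 with library totals and 5 in a fit of only the 2 groups. DESeq2 called 7 chains, 10 related genes and 1684 genes, and limma voom 10, 15 and 3267. Without the 4 high-background libraries the counts were 5, 11 and 1419, and without the controls with Xist they were 2, 1 and 199. Leaving out 1 library gave 0 to 5 chains, 0 to 9 related genes and 297 to 961 genes. Between KO metastasis and control primary 4 chains, 0 related genes and 685 genes were called. DESeq2 called 5, 6 and 1680, voom 10, 11 and 3822, and a fit of only the 2 groups 3, 0 and 435. Without the high-background libraries the counts were 6, 2 and 1271, and without the controls with Xist 2, 1 and 151. No filter gave 3 chains and 1 related gene, RLE scaling 4 and 2, and library totals 3 chains. Col4a5 lost its call there without the filter (adjusted p 0.0559), with library totals (0.0608) and in the fit of only the 2 groups (0.0895). Leaving out 1 library gave 2 to 4 chains, 0 to 4 related genes and 378 to 1107 genes. Between KO metastasis and KO primary no chain was called under any of these, and over all genes 1 was. That number was 2 without the filter, 0 with library totals, 39 by DESeq2, 2 by voom, 0 in a fit of only the 2 groups, 8 without the high-background libraries and 0 to 1 with 1 library left out. The labels do not say that replicate numbers pair libraries. Deviations of same-numbered metastases and KO primaries correlated by 0.356, 0.488, -0.00473 and 0.675. Differently numbered ones reached 0.520 (KO metastasis 4 with KO primary 3) and 0.686 (KO metastasis 6 with KO primary 7, both high-background). These values cannot decide whether the numbers are pairs, because libraries of different numbers correlated as highly. The numbers were not taken as pairs. With the replicate number as a block, 5 chains were called in KO primary against control primary (Col4a1 at an adjusted p of 0.0965, Col4a2 at 0.0878 and Col9a3 at 0.124 lost their call, and Col27a1 and Col5a2 gained one). With that block 2 related genes were called in KO metastasis against control primary, and 0 genes in KO metastasis against KO primary, also with a block among the knockout libraries alone. The cause of these shifts was not tested, other than that fewer libraries enter where some are left out. Depth limits the 14 chains below a mean of 1 CPM.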

Other observations

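Other genes of basement membranes, 15 in all (laminin chains, nidogens, perlecan and agrin), were listed after the collagen values were seen. Between KO primary and control primary 0 of the 15 were called by edgeR, against 2.93% of all genes, and 8 had a log2 fold change above 0. An unadjusted p below 0.05 was reached by 3 of the 15, against 3020 of all 22265 genes. Lamc1, a common laminin chain, averaged 41.8 ± 7.03 CPM in KO primary and 26.1 ± 7.88 CPM in control primary, with no overlap (log2 fold change 0.68, SE 0.29, adjusted p = 0.30). Lamb1 averaged 14.2 ± 9.08 CPM in KO primary and 5.38 ± 3.55 CPM in control primary (1.40, SE 0.50, adjusted p = 0.189). Perlecan, Hspg2, was at 3.57 ± 2.23 CPM in KO primary and 1.78 ± 2.14 CPM in control primary. Between KO metastasis and control primary 1 of the 15 was called, against 3.08% of all genes. Lama1, a laminin chain of the pial surface, averaged 4.14 ± 1.76 CPM in KO metastasis and 17.5 ± 10.7 CPM in control primary (-2.07, SE 0.43, adjusted p = 0.0244), with no overlap. Between KO metastasis and KO primary none was called, against 0.00449% of all genes. None had an unadjusted p below 0.05, against 720 of all 22265 genes. Lamc1, Lamb1 and Hspg2 were picked for naming after their values were seen.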
